A study of Mus musculus with 71 samples.

Results

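The comparison is night against day in undisturbed home-cage mice on a diet rich in fat and sucrose (HFS). Its samples are the 6 mice labelled HFS ad lib, home cage, zt15 and the 6 labelled HFS ad lib, home cage, zt3, which is 12 of the 71 mice of the series. Its genes are the protein-coding genes with at least 10 counts in total over all mice, which is 17601 of the 57010 genes in the count table. The question is which messages on hippocampal ribosomes differ between the dark and the light phase on this diet.

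All mice were male C57BL/6J animals labelled WT, and the 12 compared here had ad libitum access to the HFS diet from 3 weeks of age for 12 weeks, by the methods of the study. Zeitgeber time (ZT) counts hours from lights on in a cycle of 12 h of light and 12 h of dark, so ZT3 lies in the light phase and ZT15 in the dark phase, when mice feed and move most. From each hippocampus, messages were pulled down with ribosomes that carry phosphorylated ribosomal protein S6 (pS6-TRAP), which weights the sample towards cells with recent activity, and sequenced as stranded libraries. Of the mice set beside them, chow mice (NC ad lib) ate normal chow ad libitum. Time-restricted mice (HFS TRF) ate the HFS diet with food limited to ZT11 to ZT1 for the last 4 weeks. Trained mice were HFS ad lib mice killed 1 h or 12 h after 10 minutes of object recognition training (ORM+1h near ZT3, ORM+12h near ZT15). Training was spread over some hours, so these times are approximate. Each of these groups held 6 mice at each time, except the time-restricted group at ZT15 with 5, and the titles of the time-restricted samples also say ad libitum. By the study, the ZT3 and ORM+1h mice formed a first experiment and the ZT15 and ORM+12h mice a second. In every comparison of ZT15 with ZT3 the hour and the experiment therefore cannot be separated. The labels do not say which steps, from the mice to the sequencing, were run apart.

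The 6 ZT3 libraries held 51.2 to 56.9 M counts (median 54.4 M), and the 6 ZT15 libraries held 47 to 58.8 M (median 53.5 M). The groups overlapped in depth. Levels are given as CPM, counts scaled to library size with TMM factors, and mice are named by their time and replicate number. A gene was called when the adjusted p was under 0.05 by the quasi-likelihood test of edgeR with Benjamini-Hochberg adjustment over all 30141 genes tested, and every log2 fold change is ZT15 relative to ZT3. Of the protein-coding genes tested, 1742 were called (9.9%), of which 1062 rose (6.03%) and 680 fell (3.86%), and 4397 had an unadjusted p under 0.05. No list of genes described below was tested against these shares. In the fit of only the groups compared 903 were called (605 rose, 298 fell), and with a replicate block added to that fit 450 (324 rose, 126 fell). Correlations between mice of the same replicate number across the times ran from -0.61 to -0.02, so the number shows no pairing. DESeq2 called 2115 (1381 rose, 734 fell). Most changes were small: the median log2 fold change was 0.38 among the genes that rose, -0.34 among those that fell and 0.02 over all protein-coding genes. More than 2-fold changes were found for 94 genes that rose and 78 that fell. The 6 and 6 mice did not overlap at all for 544 genes (3.09%). With the fit restricted to protein-coding genes, 1716 were called, but the split turned to 811 that rose and 905 that fell. In a principal component analysis over 13072 genes, the first component (30.6% of the variance) did not separate the times, with mice of both groups at either end. The second (19.5%) placed 5 of 6 ZT3 mice above all ZT15 mice and left ZT3 mouse 6 among them.

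The mammalian clock is a feedback loop. BMAL1 paired with CLOCK or NPAS2 binds E-box sequences and turns on the period and cryptochrome genes, whose proteins return to repress the pair, while REV-ERB repressors and ROR activators compete at a shared element in the Bmal1 gene. The loop drives output factors such as DBP, TEF and HLF, which act through D-boxes, and in most mouse tissues Bmal1 message runs opposite in phase to Dbp and the REV-ERB genes.

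Of the 4 activators, Bmal1 fell and the other 3 were not called, with a list median log2 fold change of -0.11. Bmal1 (ENSMUSG00000055116, GRCm39 chr7:112806152-112914735), the partner shared by both activator pairs, was at 33.6, 37.1 and 47.9 CPM (lowest, median, highest) at ZT3 and at 24.6, 26.5 and 31.7 CPM at ZT15. All 6 ZT15 mice lay below all 6 ZT3 mice. The log2 fold change was -0.52 (SE 0.10, adjusted p 9.53e-05, lower in 6 of 6 mice). Npas2, which can replace CLOCK, was at 18.3, 25.1 and 26.3 CPM at ZT3 and 18.9, 21.8 and 23 CPM at ZT15, with the ZT15 mice inside the ZT3 range (log2 fold change -0.14, adjusted p 0.385, 0 of 6 mice below the lowest ZT3 mouse). Clock (-0.08) and Bmal2 (-0.08), a second BMAL gene, shifted less.

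Among the 5 period and cryptochrome repressors, 2 rose and none fell, and all 5 had a positive log2 fold change (median 0.15). Per1 (ENSMUSG00000020893, chr11:68986035-69002300), which is also induced by neuronal activity and glucocorticoids, was at 59.8, 66.6 and 82.8 CPM at ZT3 and 64.3, 104 and 130 CPM at ZT15. The ZT15 mice were spread wide: 5 of 6 exceeded every ZT3 mouse and 1 fell within their range. Its log2 fold change was 0.55 (SE 0.12, adjusted p 8.62e-04, above the highest ZT3 mouse in 5 of 6). Cry1 (ENSMUSG00000020038, chr10:84967560-85021252), the repressor that acts latest in the cycle, was at 17.7, 20.4 and 21.8 CPM at ZT3 and 19.6, 27.5 and 29.4 CPM at ZT15, again with 5 of 6 ZT15 mice on top. It rose by 0.39 on the log2 scale (SE 0.09, adjusted p 6.45e-04, 5 of 6). Per2, the paralogue most tied to the period of the loop, differed mainly in spread: the 6 ZT3 mice lay between 27.7 and 30.8 CPM and the 6 ZT15 mice between 22.3 and 40.3 CPM, on both sides of them (log2 fold change 0.13, adjusted p 0.626, 3 of 6 above and 2 of 6 below). Per3 was at 13.4, 18.6 and 21.3 CPM at ZT3 and 15.4, 18 and 21.4 CPM at ZT15. The groups covered almost the same range (log2 fold change 0.03, adjusted p 0.934, 1 of 6 above), and with each mouse left out in turn the estimate moved between -0.04 and 0.09. Cry2 was at 0.15 with an adjusted p of 0.102 and 2 of 6 mice above the ZT3 range.

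**Figure D1:**
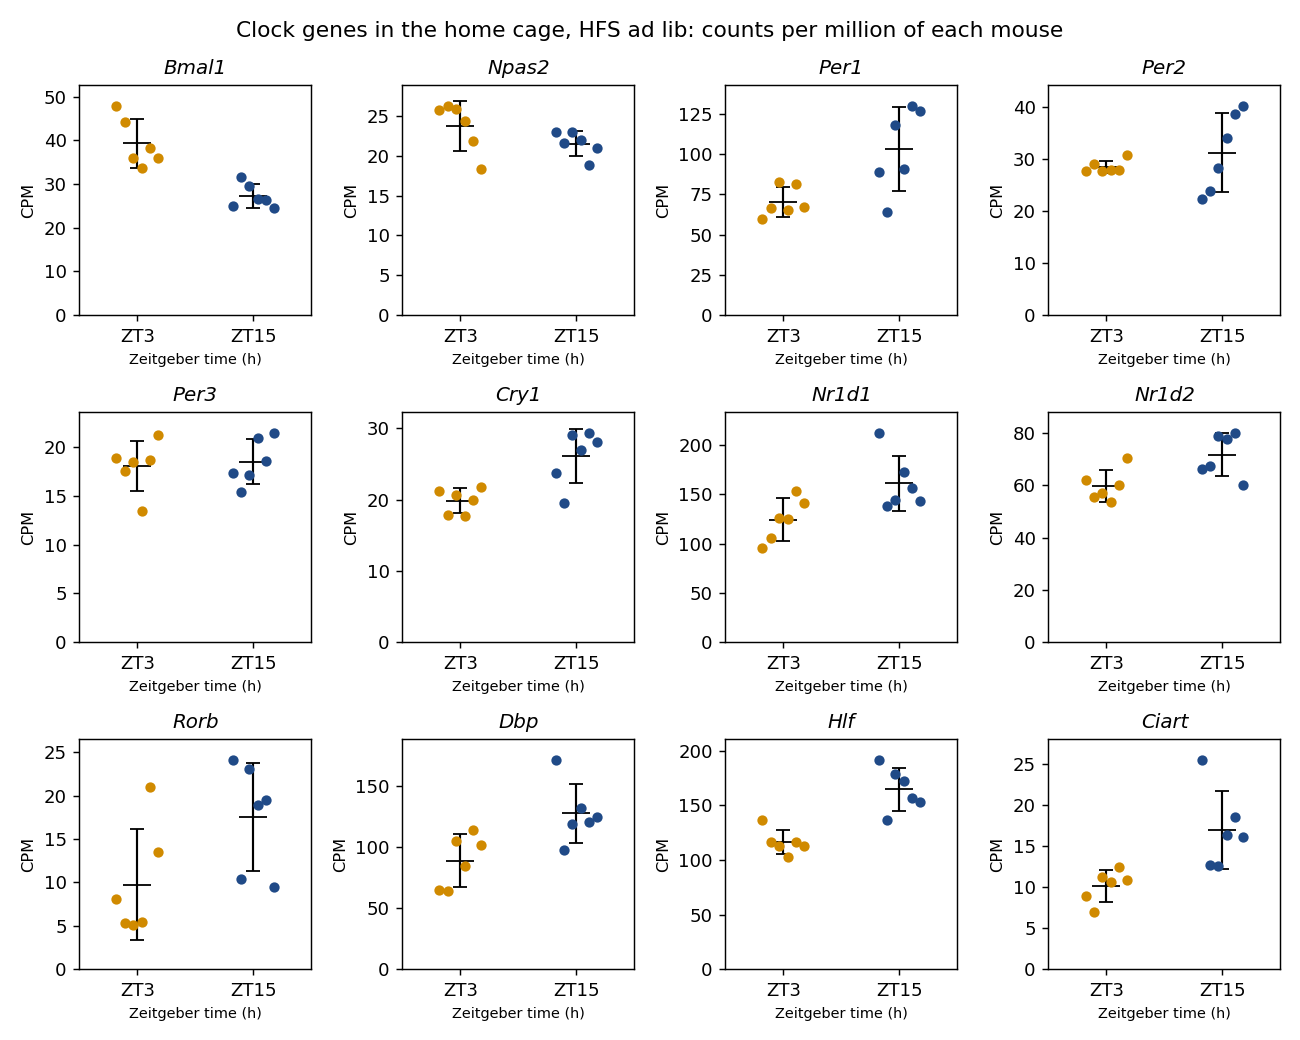
CPM of 12 clock genes (vertical axes, from 0) in each HFS ad lib home-cage mouse at ZT3 (orange) and ZT15 (blue), with the mean and SD in black, n = 6 per group. Bmal1 and Ciart show no overlap between the groups, while the Per3 groups lie on one another and the Per2 mice at ZT15 lie on both sides of the ZT3 mice.

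Of the 5 nuclear receptors of the second loop, 3 rose and none fell (median log2 fold change 0.54). Nr1d1 (ENSMUSG00000020889, chr11:98658752-98666188) encodes REV-ERB alpha, a repressor of Bmal1, and was at 95.3, 125 and 153 CPM at ZT3 and 138, 150 and 212 CPM at ZT15. The ranges overlapped, with 3 of 6 ZT15 mice above the highest ZT3 mouse (log2 fold change 0.37, SE 0.12, adjusted p 0.0241). Nr1d2, for REV-ERB beta, was at 53.4, 58.4 and 70.4 CPM at ZT3 and 60.2, 72.5 and 79.9 CPM at ZT15. Its mice leaned the same way, 3 of 6 above the ZT3 range, without passing (log2 fold change 0.26, adjusted p 0.069). Rorb, a ROR activator gene, was at 5.08, 6.77 and 21 CPM at ZT3 and 9.53, 19.2 and 24.1 CPM at ZT15, and only 2 of 6 ZT15 mice exceeded the highest ZT3 mouse (log2 fold change 0.85, SE 0.27, adjusted p 0.0266). Rora, a further one, was at 15.7, 19.9 and 29.3 CPM at ZT3 and 17.4, 22.4 and 55.9 CPM at ZT15. Its log2 fold change of 0.54 is the list median, with an adjusted p of 0.124 and 2 of 6 mice above. Rora is also in the list of thalamic markers given below, and the part of thalamic tissue in its values was not tested. The calls of Nr1d1 and Rorb did not hold in every fit that left out 1 mouse. Nr1d1 was not called without ZT3 mouse 1, ZT3 mouse 2 or ZT15 mouse 1 (log2 fold change from 0.28, adjusted p up to 0.126). Rorb lost its call without ZT3 mouse 1, 2, 3 or 4 or ZT15 mouse 1 or 3 (from 0.72, up to 0.0911). Without ZT3 mice 5 and 6, a choice made after the data were seen, the log2 fold change of Rorb was 1.55 (adjusted p 2.1e-05). The 5 receptors summed to 193 to 207 CPM in ZT3 mice 1 to 4, to 252 and 249 CPM in ZT3 mice 5 and 6 and to 234 to 350 CPM at ZT15. Nr1d2 gained a call in 5 of 21 alternative fits: by DESeq2, with the genes kept by filterByExpr, without ZT3 mouse 6, without ZT15 mouse 6 and without ZT3 mice 5 and 6 (0.33, adjusted p 0.0357).

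Of the 9 output factors, 5 rose and none fell, and all 9 had a positive log2 fold change (median 0.24). Ciart (ENSMUSG00000038550, chr3:95785815-95789991), which encodes CHRONO, a repressor of BMAL1, was at 6.96, 10.8 and 12.4 CPM at ZT3 and 12.7, 16.3 and 25.5 CPM at ZT15. No ZT15 mouse fell within the ZT3 range, and Ciart was the only one of the 9 without overlap (log2 fold change 0.74, SE 0.15, adjusted p 1.78e-04, higher in 6 of 6). Hlf, a D-box activator, was at 103, 115 and 137 CPM at ZT3 and 137, 165 and 191 CPM at ZT15, with the lowest ZT15 mouse just under the highest ZT3 mouse (log2 fold change 0.50, SE 0.11, adjusted p 3.99e-04, 5 of 6 above). Dbp (ENSMUSG00000059824, chr7:45354512-45359627), the D-box activator with the widest swing in many tissues, was at 64.2, 93.3 and 114 CPM at ZT3 and 98.1, 123 and 171 CPM at ZT15. Here too 5 of 6 ZT15 mice lay above all ZT3 mice (log2 fold change 0.52, SE 0.16, adjusted p 0.025). Nfil3, which represses at D-boxes, was at 11.8, 12.5 and 20.1 CPM at ZT3 and 15.5, 21.3 and 28.8 CPM at ZT15, with 3 of 6 above the range (log2 fold change 0.58, SE 0.17, adjusted p 0.0187). Bhlhe41, for the E-box repressor DEC2, was at 42.5, 45.5 and 53.4 CPM at ZT3 and 51.2, 53.6 and 62.9 CPM at ZT15, a small shift (log2 fold change 0.24, SE 0.08, adjusted p 0.0377, 4 of 6 above). Dbp was not called without ZT3 mouse 1, ZT3 mouse 2 or ZT15 mouse 1 (from 0.42, adjusted p up to 0.105). Nfil3 was not called without ZT3 mouse 1 or 2 or ZT15 mouse 3 or 5 (from 0.48, up to 0.0779), and Bhlhe41 was not without ZT3 mouse 2, 4, 5 or 6 or ZT15 mouse 1 or 6 (from 0.20, up to 0.124). Tef, Bhlhe40, Klf9 and Klf10 were not called, with log2 fold changes of 0.14, 0.16, 0.05 and 0.06. Per1, Cry1, Bmal1, Hlf and Ciart kept their call in all 21 alternative fits in which single genes were followed, and the replicate block with only the groups compared was not among these. In the fit of only the groups compared Nr1d1 (adjusted p 0.0646), Rorb (0.142) and Nfil3 (0.0522) were not called. In the fit of the 6 home-cage groups Rorb (0.0811), Nfil3 (0.06) and Bhlhe41 (0.0651) were not. Bhlhe41 was also not called with protein-coding genes alone (0.0686) or without ZT3 mice 5 and 6 (0.151). Per kilobase of exon, the highest clock gene at ZT3 was Tef at 42 CPM per kb, ahead of Nr1d1 (38.4), Klf9 (36.5) and Dbp (25.7), and the lowest was Bmal2 (0.27). None of the 10 kinases and ubiquitin ligases that set the life of clock proteins was called by edgeR or DESeq2 (0 of 10, 2 at an unadjusted p under 0.05, list median -0.01).

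The same contrast in mice on other regimens gives values side by side. Chow mice had 2008 protein-coding genes called (11.4%) and time-restricted mice 2800 (15.9%). In fits of only the groups compared the counts were 903 in HFS ad lib, 1621 in chow and 2803 in time-restricted mice, and with the replicate block they were 450, 1209 and 2392. Of the 1742 genes called in HFS ad lib mice, 730 were called in the same direction in chow mice, which is 41.9% of the first list and 36.4% of the second, and 0 in the opposite direction. With time-restricted mice 1015 were shared in direction, 58.3% of the HFS ad lib list and 36.2% of the time-restricted list, and 1 went the other way. In all 3 regimens 413 genes rose and 216 fell. Bmal1 fell by 0.56 in chow mice and by 0.60 in time-restricted mice (log2 scale), and Ciart rose by 0.88 and 0.99. Dbp rose by 0.95 and 1.03 there, against 0.52 in HFS ad lib mice. Per3 rose by 0.50 in chow and 0.52 in time-restricted mice, against 0.03, and Npas2 fell by 0.30 and 0.43. Nr1d2 rose by 0.48 and 0.53.

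Whether the change itself differed between regimens was tested for every gene. The contrast of HFS ad lib with chow called 0 protein-coding genes (0%) by the edgeR test, with 1564 at an unadjusted p under 0.05, a smallest adjusted p of 0.404 and 0 calls by DESeq2. The contrast of time-restricted with HFS ad lib called 0 (0%), with 1281 at an unadjusted p under 0.05, a smallest adjusted p of 0.461 and 0 calls by DESeq2. Per3, Npas2 and Nr1d2 are the clock genes the study singles out for this contrast, so their values here are not independent evidence. For Per3 the change in HFS ad lib minus that in chow was -0.47 (95% confidence interval -0.79 to -0.15, adjusted p 0.404). The level at ZT3 carried this gap: chow mice were at 11.4, 12.4 and 15.8 CPM, time-restricted mice at 12.6, 14 and 16.8 CPM, and 5 of the 6 HFS ad lib mice lay above both ranges, while at ZT15 the 3 groups overlapped (medians 17.8, 20.6 and 18). For Npas2 the difference was 0.16 (-0.12 to 0.44, adjusted p 0.771) and for Nr1d2 it was -0.22 (-0.49 to 0.06, adjusted p 0.636). For Dbp the interval ran from -0.89 to 0.02 around -0.43. Genes with the smallest p were chosen after their values were seen. Tent2, for a poly(A) polymerase, differed by -0.67 (unadjusted p 5.6e-05) and Npy, for neuropeptide Y, by 0.84 (9.89e-05), both at an adjusted p of 0.404. Npy was at 23.1, 39.3 and 40.8 CPM at ZT3 and 40.2, 63.1 and 81.5 CPM at ZT15 in HFS ad lib mice, with 5 of 6 above the ZT3 range. Its log2 fold change was 0.72 in these mice and -0.13 in chow mice. Smurf2, for a ubiquitin ligase, had the smallest p for time-restricted minus HFS ad lib (0.41, unadjusted p 4.83e-05, adjusted p 0.461).

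**Figure D2:**
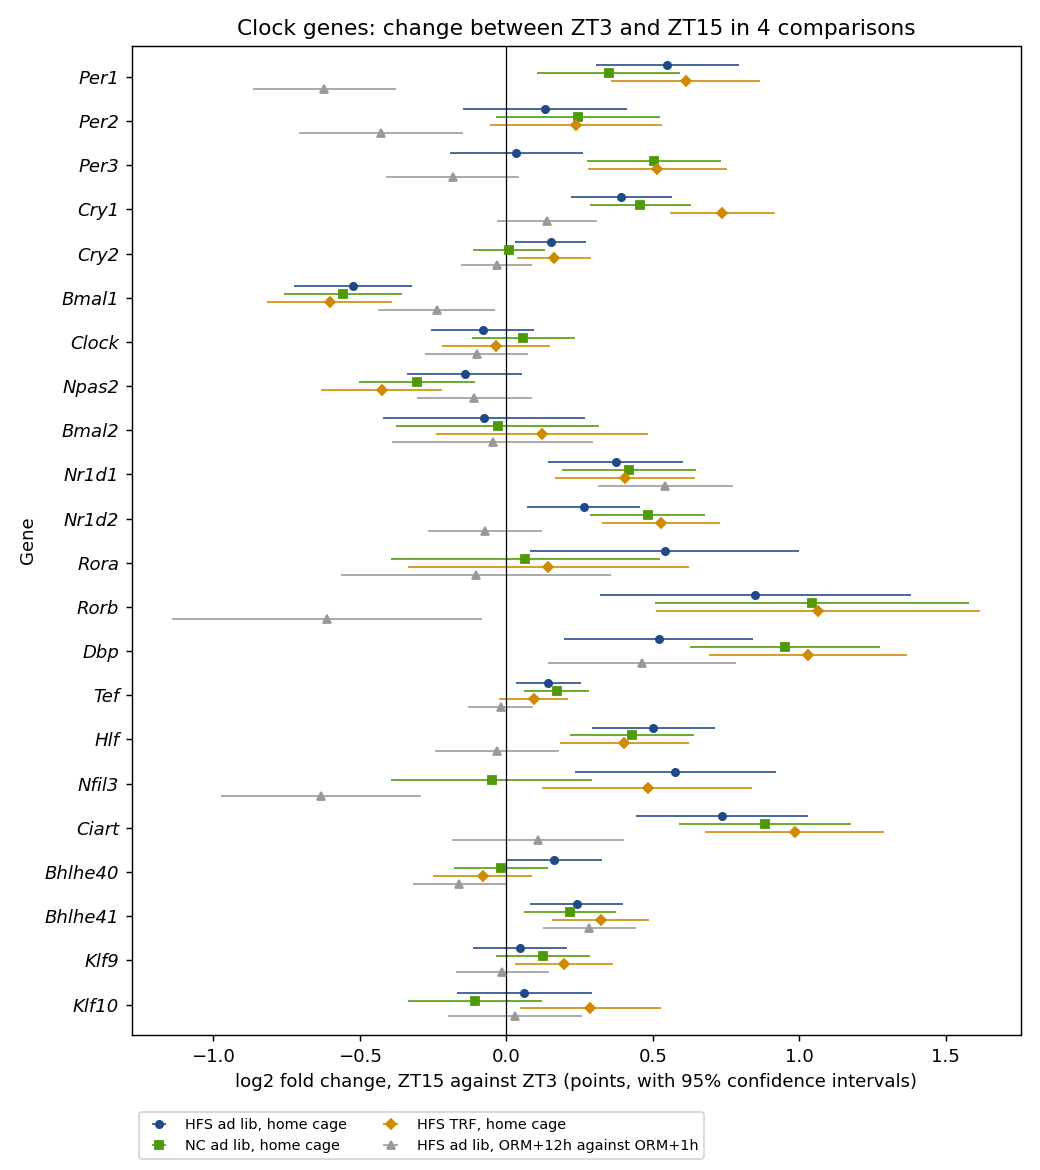
log2 fold change of ZT15 against ZT3 for 22 clock genes (horizontal axis, points with 95% confidence intervals) in HFS ad lib, chow and time-restricted home-cage mice and in trained HFS ad lib mice. Bmal1 lies left of 0 and Ciart right of 0 in the 3 home-cage comparisons, and Per1, Rorb and Nfil3 lie on opposite sides of 0 in home-cage and trained HFS ad lib mice.

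Trained mice on the same diet span about the same times of day and the same experiments but share no mouse with the home-cage groups. The interval since training differs as well. ORM+12h against ORM+1h called 1677 genes (9.53%), 843 up and 834 down, and 1240 and 815 in the fits of only the groups compared without and with the replicate block. Of the home-cage list, 417 genes moved in the same direction, which is 23.9% of it and 24.9% of the trained list, and 35 moved the other way. The test of the difference, home-cage change minus trained change, called 246 genes (1.4%), 178 higher and 68 lower, with 2848 at an unadjusted p under 0.05, and 88 genes in either fit of only the groups compared. Per1 was at 125, 133 and 157 CPM in ORM+1h mice and 76.8, 84 and 109 CPM in ORM+12h mice, with no overlap and in the opposite order to the home cage. The difference for Per1 was 1.17 (adjusted p 1.27e-05, home-cage rise in 5 of 6 mice). For Nfil3 it was 1.21 (adjusted p 0.00324, 3 of 6 above the ZT3 range) and for Rorb 1.46 (adjusted p 0.0352, 2 of 6). Bmal1 (-0.24), Ciart (0.11), Cry1 (0.14) and Hlf (-0.03) were not called in trained mice, while Nr1d1 (0.54) and Bhlhe41 (0.28) rose there. The difference for these genes was not called. Leaving out 1 home-cage mouse moved the count of 246 between 138 (without ZT15 mouse 5) and 435 (without ZT3 mouse 5). It also passed a 1.5-fold shift without ZT3 mouse 1 (149), ZT3 mouse 2 (153) and ZT3 mouse 6 (394).

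Promoters were read from the RefSeq table on GRCm38.p6, over the 250 bases before each start and on both strands. Of the 23 clock genes 19 were matched. The E-box CACGTG was found in 5 of 19 clock promoters (26.3%) and in 4 of the 10 matched clock genes that were called (40%), beside 1209 of 13347 promoters of all genes tested (9.06%). Among called genes it was found in 103 of 825 that rose (12.5%) and 40 of 508 that fell (7.87%). The D-box TTATGTAA was in 1 of 19 clock promoters (Per3) and in 0.719% of all, the REV-ERB and ROR element TAGGTCA in 1 of 19 (Nfil3) and in 2.17% of all, and the cyclic AMP element TGACGTCA in 1 of 19 and 2.62%. A heat shock element of 3 inverted GAA units was in 2 of 19 promoters of heat shock factor targets (10.5%) and 0.457% of all. A match describes the letters only. The 4 clock promoters that hold an E-box in genes that rose are shown because E-boxes are where BMAL1 binds, each 5′ to 3′ with the E-box in capitals. Ciart holds 3 within chr3:95882229-95882478 (minus strand). Cry1 holds 1 within chr10:85185055-85185304 (minus strand), Per1 holds 1 within chr11:69098699-69098948 (plus strand) and Bhlhe41 holds 1 within chr6:145865421-145865670 (minus strand).
Ciart: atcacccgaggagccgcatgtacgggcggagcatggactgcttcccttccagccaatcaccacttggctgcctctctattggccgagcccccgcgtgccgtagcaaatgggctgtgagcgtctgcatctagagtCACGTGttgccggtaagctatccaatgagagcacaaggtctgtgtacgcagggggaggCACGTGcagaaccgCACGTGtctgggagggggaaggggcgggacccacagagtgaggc
Cry1: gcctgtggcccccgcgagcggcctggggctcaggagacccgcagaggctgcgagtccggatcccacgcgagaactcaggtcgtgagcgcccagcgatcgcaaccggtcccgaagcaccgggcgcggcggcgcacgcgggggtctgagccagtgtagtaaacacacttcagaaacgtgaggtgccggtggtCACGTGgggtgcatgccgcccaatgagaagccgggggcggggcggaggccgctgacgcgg
Per1: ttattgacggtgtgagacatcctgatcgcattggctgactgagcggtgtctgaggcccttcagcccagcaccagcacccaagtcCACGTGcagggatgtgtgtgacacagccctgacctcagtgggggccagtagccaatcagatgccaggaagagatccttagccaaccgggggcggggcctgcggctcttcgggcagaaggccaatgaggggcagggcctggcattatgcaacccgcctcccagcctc
Bhlhe41: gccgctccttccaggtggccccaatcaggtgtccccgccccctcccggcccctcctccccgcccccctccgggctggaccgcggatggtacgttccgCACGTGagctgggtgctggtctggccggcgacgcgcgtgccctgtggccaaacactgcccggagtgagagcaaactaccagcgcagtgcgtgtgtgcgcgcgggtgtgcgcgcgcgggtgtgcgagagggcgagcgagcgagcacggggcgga

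The genes with the smallest p outside the clock were of a different kind. Among the 8 that rose with the smallest adjusted p were Rps10, Rps27, Rps29, Rpl35, Rps18, Eef1g and Zhx3, and the 8 that fell were Gapdhrt, AK157302, Ube2srt, Gapdhrt2, Adrm1b, Rpl35rt, Gm8797 and Pam16l. None of the 6 and 6 mice overlapped for any of these 15. Gapdhrt (ENSMUSG00000097148, chr14:11113008-11189060), a copy of the glycolytic gene Gapdh, was at 17.9, 20.4 and 21.3 CPM at ZT3 and 2.46, 2.89 and 2.99 CPM at ZT15 (log2 fold change -2.83, SE 0.11, adjusted p 1.32e-33, 6 of 6 below). Gapdh itself, 99.3% identical, was at a mean of 240 CPM at ZT3 and 253 CPM at ZT15 and was not called (0.08). AK157302, a single-exon copy of the iron-sulphur assembly gene Isca1 (99.5% identical), fell from 11.7 to 14.8 CPM at ZT3 to 0.37 to 0.78 CPM at ZT15 (log2 fold change -4.43, adjusted p 1.29e-27, 6 of 6 below), while Isca1 stood at 0.03. Ube2srt fell by 3.94 on the log2 scale and its near-identical source Ube2s (99.9%) rose by 0.37. The same pattern held for Adrm1b (-2.08) against Adrm1 (0.45, 99.8%) and Rpl35rt (-1.08) against Rpl35 (0.71, 99.7%). Gm8797 (-2.83) and Pam16l (-3.55) fell beside Ubb (0.29, 98.7%) and Pam16 (0.19, 100%), which were not called. Reads of such copies can be placed at either locus, so the direction of each single copy is uncertain.

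The same shifts were seen wherever the experiments were compared. Gapdhrt changed by -3.02 in chow, -3.02 in time-restricted and -2.77 in trained HFS ad lib mice, and AK157302 by -4.21, -4.72 and -4.64. The search for copies was set up after these values were seen. A close copy, defined as another coding sequence at 85% identity or more over at least 50% of the length, existed for 51 of the 78 genes that fell more than 2-fold (65.4%). It existed for 13 of 94 that rose more than 2-fold (13.8%), 72 of all 680 that fell (10.6%), 60 of all 1062 that rose (5.65%) and 1373 of 17601 tested (7.8%). Of the 78, 22 had a single exon (28.2%), against 499 of all genes tested (2.84%). Pseudogenes, which the rule of the comparison does not include, behaved alike: of 4410 tested, 1183 fell and 65 rose, with a median log2 fold change of -1.17. Processed pseudogenes had medians of -1.34 in HFS ad lib, -1.31 in chow, -1.36 in time-restricted and -1.37 in trained mice. Summed over all pseudogenes, the 6 ZT3 mice were at 6713 to 7734 CPM (median 7369) and the 6 ZT15 mice at 5151 to 6032 CPM (median 5508). No ZT15 mouse reached the lowest ZT3 mouse, and over all 71 mice those of the ZT3 experiment lay at 6713 to 8220 CPM and those of the ZT15 experiment at 5069 to 6340 CPM, again apart. Because the experiment and the time of day coincide, the part of either in these shifts cannot be told apart.

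**Figure D3:**
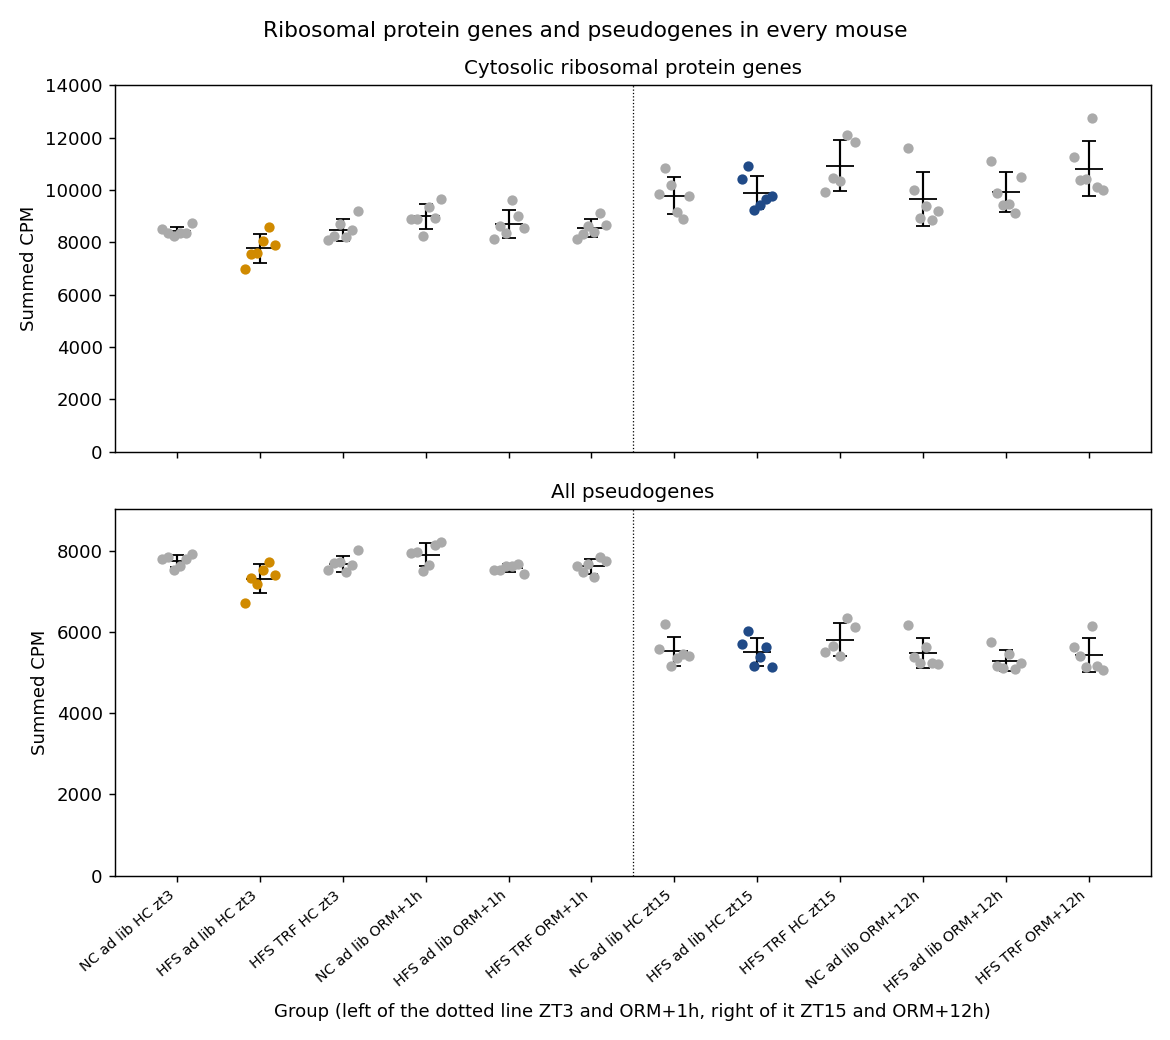
Summed CPM of the 80 cytosolic ribosomal protein genes and of all pseudogenes (vertical axes, from 0) in each of the 71 mice by group, with the mean and SD in black; HFS ad lib home-cage mice at ZT3 are orange and at ZT15 blue. Pseudogene sums of the ZT3 and ORM+1h mice, 6713 to 8220 CPM, lie above those of the ZT15 and ORM+12h mice, 5069 to 6340 CPM.

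Cytosolic ribosomal proteins formed the list with the most calls. Of 80 genes, 59 rose and 3 fell (median log2 fold change 0.36, against 0.02 over all genes), and for 48 of them all ZT15 mice lay above all ZT3 mice, beside 3.09% of all genes without overlap. Summed, they were at 6970 to 8602 CPM at ZT3 (median 7750) and 9243 to 10910 CPM at ZT15 (median 9702), with no overlap. The genes that fell were Rpl17, Rpl23a and Rpl35rt. Rps27 (ENSMUSG00000090733, chr3:90119819-90120977), of the small subunit, was at 31.5, 46.7 and 54.6 CPM at ZT3 and 77.7, 87.3 and 93.7 CPM at ZT15 (log2 fold change 0.94, SE 0.10, adjusted p 3.51e-12, 6 of 6 above). Rps29 (0.86), Rps10 (0.90), Rpl35 (0.71) and Rps18 (0.64) were as cleanly split, though Rps27, Rps10, Rpl35 and Rps18 each have a copy at 97.8% identity or more. Rps6 (ENSMUSG00000028495), whose phosphorylated protein is the handle of the pull-down, was at 77.4, 85.4 and 90.8 CPM at ZT3 and 97, 108 and 130 CPM at ZT15, without overlap (log2 fold change 0.36, SE 0.07, adjusted p 2.37e-05, 6 of 6 above). Pseudogenes closest to a ribosomal protein gene went the other way in number, 327 of 969 fell and 38 rose, but their sum overlapped between ZT3 (1221 to 1570 CPM) and ZT15 (1194 to 1427 CPM). Genes and pseudogenes together were at 8191 to 10170 CPM at ZT3 and 10440 to 12340 CPM at ZT15, still apart. In chow mice 42 of the 80 rose and 4 fell, in time-restricted mice 60 and 3, and in trained HFS ad lib mice 34 and 3. The difference between home-cage and trained mice was called for 0 of the 80 by edgeR (27 at an unadjusted p under 0.05). The rise held in each alternative fit, with 46 to 61 of the 80 called. Eef1g, a translation elongation factor, rose by 0.47 (adjusted p 5.12e-10, 6 of 6 above). Zhx3, for a nuclear repressor, rose by 0.45 (adjusted p 6.27e-10, 6 of 6).

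Of 12 genes for S6, its kinases and translation control, 4 rose and none fell (median 0.18). Without ZT3 mouse 2 or ZT15 mouse 3 1 rose, and without ZT3 mouse 1, 4 or 6 or ZT15 mouse 6 2 rose. Nuclear genes of oxidative phosphorylation leaned up as well, with 25 of 91 called as rises and 2 as falls (median 0.18). In chow mice 6 rose and 1 fell, and in time-restricted mice 45 and 4. In trained HFS ad lib mice 6 rose and 3 fell (median 0.07). Ndufs5, of complex I, was at 80.1, 89.9 and 98.9 CPM at ZT3 and 104, 123 and 150 CPM at ZT15 (log2 fold change 0.46, SE 0.09, adjusted p 4.37e-05, 6 of 6 above). Atp5me (0.40), of ATP synthase, and Cox6a1 (0.37) and Cox6a2 (0.80), of complex IV, also had no overlap. Of 13 mitochondrially encoded genes, 4 fell and none rose (median -0.47), and their sums overlapped, at 395 to 751 CPM at ZT3 and 308 to 709 CPM at ZT15. The 4 were near the floor of detection: mt-Co2, of complex IV, had 33 to 126 counts per mouse at ZT3 and 2 to 4 at ZT15, and mt-Co3 36 to 126 and 0 to 4. mt-Atp6 was at 0.79 to 1.92 CPM at ZT3 and 0.02 to 0.21 CPM at ZT15. mt-Nd4l had 1 to 11 counts at ZT3 and 1 count in a single mouse at ZT15. The same 4 fell in chow mice (mt-Co2 by 3.80, mt-Co3 by 2.57), where none rose and the median of the 13 was positive (0.58). In time-restricted mice 4 of the 13 rose and 3 fell (median 0.54), and in trained mice 6 fell and none rose (median -0.98). mt-Nd1, the most abundant of the 13, averaged 127 CPM at ZT3 and 124 CPM at ZT15.

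Among 20 targets of the glucocorticoid receptor, 10 rose and none fell (median 0.48), and 7 to 13 did so with 1 mouse left out. This list shares Per1 and Klf9 with the clock lists, Gjb6 with the astrocyte markers and other members with further lists. The values of shared members are not separate results. The summed level was at 915 to 1449 CPM at ZT3 and 1276 to 1537 CPM at ZT15, with ZT3 mouse 5 inside the ZT15 range. ZT3 mice 5 and 6 were at 1449 and 1251 CPM and the other 4 at 915 to 969 CPM. The same 2 mice were high in astrocyte markers, and the part of this in the list was not tested. Without both, a choice made after the data were seen, 13 of the 20 rose (median 0.69). Lcn2, 1 of the 10, was not called without ZT15 mouse 2. Fkbp5, a chaperone gene that the receptor induces, was at 94.7, 104 and 114 CPM at ZT3 and 110, 137 and 176 CPM at ZT15 (log2 fold change 0.41, SE 0.09, adjusted p 3.05e-04, 5 of 6 above). Tsc22d3, for the glucocorticoid-induced zipper protein GILZ, was at 44.2, 48.2 and 72.3 CPM at ZT3 and 61.1, 86 and 95.6 CPM at ZT15 (log2 fold change 0.63, SE 0.12, adjusted p 1.31e-04, 4 of 6 above). Plin4, for a lipid droplet protein, was low but separated, at 0.12, 0.46 and 0.95 CPM at ZT3 and 1.39, 2.48 and 6.36 CPM at ZT15 (log2 fold change 2.63, SE 0.57, adjusted p 6.3e-04, 6 of 6 above). In chow and time-restricted mice 12 and 11 of the 20 rose. In trained mice none rose and 3 fell, and the difference from the home cage was called for 4 of 20.

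Of 30 immediate-early genes, which neurons switch on with activity, 8 rose and none fell (median 0.34). The count depended on single mice: it was 4 without ZT15 mouse 5 or 6, 5 without ZT3 mouse 1, 12 without ZT3 mouse 6, 13 without ZT15 mouse 2 and 14 without ZT3 mouse 5. Dusp5, for a phosphatase of the ERK pathway, was at 29.8, 36.5 and 55.8 CPM at ZT3 and 55.3, 61.6 and 65 CPM at ZT15 (log2 fold change 0.59, SE 0.11, adjusted p 8.82e-05, 5 of 6 above). Fosl2, of the AP-1 family, was at 62.7, 75.5 and 92.6 CPM at ZT3 and 89.7, 125 and 186 CPM at ZT15 (log2 fold change 0.76, SE 0.18, adjusted p 0.00164, 5 of 6 above). Junb, its partner, rose by 0.57 (adjusted p 0.00535, 4 of 6 above) and Sik1, a salt-inducible kinase gene that answers to cyclic AMP, by 0.83 (adjusted p 0.0105, 3 of 6 above). Sik1 was not called in the fit of only the groups compared (adjusted p 0.0617). The list rose in 7 members in chow and 15 in time-restricted mice. In trained mice 21 of 30 fell from ORM+1h to ORM+12h, and the difference from the home cage was called for 19 of 30.

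Of 6 cold-inducible RNA-binding protein genes only Srsf5, a splicing factor gene, was called (list median 0.08): it was at 116, 149 and 169 CPM at ZT3 and 77, 93 and 119 CPM at ZT15 (log2 fold change -0.62, SE 0.15, adjusted p 0.00167, 5 of 6 below). It fell by 0.60 in chow and 0.58 in time-restricted mice and stood at 0.05 in trained mice. Of 23 heat shock factor targets 3 rose and none fell (median 0.17), beside 6.03% and 3.86% of all protein-coding genes tested. Dnajb1, a cochaperone gene, was the one without overlap, at 71 to 82.4 CPM at ZT3 and 88.8 to 129 CPM at ZT15 (log2 fold change 0.42, adjusted p 0.0158, 6 of 6 above). It was not called without ZT15 mouse 5 (adjusted p 0.0804), and the list had 0 calls without that mouse and 1 without ZT3 mouse 3. In trained mice 18 of the 23 fell. Of 19 endoplasmic reticulum chaperone genes 2 rose (median 0.21). None did without ZT3 mouse 5 or ZT15 mouse 3 or 6, 1 did without ZT3 mouse 2, 3, 4 or 6 or ZT15 mouse 5, and 3 did without ZT15 mouse 2.

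Among 18 genes of thyroid hormone metabolism, transport and reception, 3 rose and 1 fell (median -0.10). The 1 was Dio3, for the deiodinase that inactivates thyroid hormone, at 1.63, 1.95 and 6.15 CPM at ZT3 and 0.49, 1.29 and 1.88 CPM at ZT15 (log2 fold change -1.14, SE 0.38, adjusted p 0.0419, 5 of 6 below). Its call was lost in 10 of 21 alternative fits. Among these were the fits without ZT3 mouse 2 or 4 or ZT15 mouse 1, 2, 3, 5 or 6 (from -0.72, adjusted p up to 0.24) and the fit of only the groups compared. The study names Dio3, so its values here are not independent evidence. Dio2, for the deiodinase that activates thyroxine and is made by astrocytes, was at 9.94, 12.2 and 32.2 CPM at ZT3 and 23.1, 33.6 and 44.2 CPM at ZT15 (log2 fold change 0.89, SE 0.24, adjusted p 0.00713, 3 of 6 above). Without ZT3 mice 5 and 6 its log2 fold change was 1.56, and it was not called in the fit of only the groups compared (adjusted p 0.0701). Rxra, a receptor partner gene, rose by 0.33 (adjusted p 0.00713, 5 of 6 above) and was not called without ZT3 mice 5 and 6 (adjusted p 0.0588). Of 26 genes of insulin and energy sensing, 3 rose and 1 fell (median 0.03). Foxo3 (ENSMUSG00000048756), for a transcription factor that insulin restrains, was at 59, 67.8 and 77.2 CPM at ZT3 and 81.3, 87.2 and 93.7 CPM at ZT15, without overlap (log2 fold change 0.37, SE 0.06, adjusted p 6.29e-06, 6 of 6 above). Mtor (ENSMUSG00000028991), for the growth kinase upstream of S6, was at 50.5, 51.8 and 63.6 CPM at ZT3 and 38.7, 42.6 and 47.3 CPM at ZT15, also without overlap (log2 fold change -0.34, SE 0.08, adjusted p 0.00208, 6 of 6 below). Of 23 cholesterol synthesis genes 1 rose (median 0.07), of 15 ionotropic glutamate receptor genes 2 rose (median -0.05), and of 12 GABA-A receptor genes 1 fell (median -0.10). These few calls stand beside 6.03% of all protein-coding genes tested that rose and 3.86% that fell. Without ZT3 mouse 2 or 4 1 insulin gene rose. Irs1 and Txnip, 2 of the 3 that rose in the main fit, were not called without ZT3 mouse 2, 3 or 4 or ZT15 mouse 3. The cholesterol gene was not called without ZT3 mouse 1. Of the others, Mvd gained a call as a rise in 3 of the 12 fits that left out 1 mouse, and Cyp51 in 1. The GABA-A gene, Gabra2, was not called without ZT3 mouse 1 or 3 or ZT15 mouse 1, 5 or 6. In the same 12 fits Gabrd gained a rise in 5, and Gabra5 and Gabra3 gained a fall in 2 each. Of the glutamate receptors 1 rose without ZT3 mouse 6 or ZT15 mouse 3, 0 without ZT15 mouse 6 and 3 without ZT3 mouse 5 or ZT15 mouse 2.

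Marker lists show what else differed between the 12 libraries. Counts of called markers stand beside 6.03% of all protein-coding genes tested that rose and 3.86% that fell. Neuronal messages dominated: 14 general neuronal markers summed to 18410 to 20570 CPM at ZT3 and 17280 to 22750 CPM at ZT15, Camk2a being the most abundant, and no marker of any list was at 0 in all 12 mice. In bulk samples such as these, fewer cells of a type and less RNA per cell cannot be told apart. Of the 14, 4 rose and none fell (median 0.15), and 2 rose without ZT3 mouse 4 or 5. Pvalb (ENSMUSG00000005716), which marks fast-spiking interneurons, was at 108, 126 and 146 CPM at ZT3 and 180, 189 and 202 CPM at ZT15 (log2 fold change 0.58, SE 0.08, adjusted p 1.12e-07, 6 of 6 above). In chow mice its change was 0.15, and the difference between the regimens was 0.43 (95% confidence interval 0.20 to 0.66, adjusted p 0.404). Dentate granule cell markers rose for 1 of 6 (median 0.18). The 1 was C1ql2 (0.42, adjusted p 0.0342, 4 of 6 above), which was not called without ZT3 mouse 4 or 6 or ZT15 mouse 6. The most abundant, Prox1, was not called (0.29, adjusted p 0.101). CA3 markers fell for 1 of 6 (median -0.05). The 1 was Prss35 (-0.31, adjusted p 0.0471, 5 of 6 below), while the most abundant, Bok, was not called (0.22). None fell without ZT3 mouse 1, 2, 3 or 5 or ZT15 mouse 2, 3 or 5, and 2 did without ZT3 mouse 4. Prss35 itself was also not called without ZT15 mouse 6.

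Astrocyte markers split the ZT3 group. The 12 markers summed to 1246, 1233, 1410, 1150, 3843 and 3539 CPM in ZT3 mice 1 to 6 and to 4711, 2701, 3409, 3679, 3190 and 2309 CPM in ZT15 mice 1 to 6. ZT3 mice 5 and 6 lay inside the ZT15 range and the other 4 far below it. CA1 pyramidal markers mirrored them at ZT3, with 588 and 646 CPM in mice 5 and 6 and 842 to 928 CPM in the other 4, against 569 to 766 CPM at ZT15. Of the 12 astrocyte markers 4 rose (median 0.62), of the 6 CA1 markers 4 fell (median -0.42), and the most abundant were Slc1a2, for the main glutamate transporter, and Mpped1. With ZT3 mice 5 and 6 left out, a choice made after the data were seen, 12 of 12 astrocyte markers rose (median 1.45) and 5 of 6 CA1 markers fell (median -0.61). Leaving out 1 mouse gave 0 astrocyte calls without ZT3 mouse 1, 2 or 4 or ZT15 mouse 1, 1 without mouse 3 of either time, 8 without ZT3 mouse 6 and 11 without ZT3 mouse 5. CA1 calls dropped to 2 without ZT3 mouse 1 or 4. In chow mice 12 astrocyte markers rose and in time-restricted mice 11, and their ZT3 sums were 1396 to 1938 CPM and 1055 to 2602 CPM. Man1a, the CA1 marker with the smallest p, fell by 0.56 (adjusted p 4.17e-04, 3 of 6 below the ZT3 range).

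The astrocytic glutamate genes that the study names, chosen on these mice and so not independent evidence, followed the same mice. Their sum was 1232 to 1343 CPM in ZT3 mice 1 to 4, 3544 and 3458 CPM in ZT3 mice 5 and 6 and 2361 to 4584 CPM at ZT15. Of the 8 genes 2 rose (median 0.67), 8 of 8 rose without ZT3 mice 5 and 6 (median 1.40), and with 1 mouse left out the count ran from 1 to 6, the latter without ZT3 mouse 5. In chow mice 8 rose and in time-restricted mice 7. Glul, for glutamine synthetase, was at 397, 443 and 1298 CPM at ZT3 and 797, 1220 and 1610 CPM at ZT15 (log2 fold change 0.82, SE 0.22, adjusted p 0.00881, 2 of 6 above). Without ZT3 mice 5 and 6 its log2 fold change was 1.53, and it was not called in the fit of only the groups compared (adjusted p 0.101). Of the 9 thyroid pathway genes the study names, 1 rose (Mapk3, 0.20, adjusted p 0.0211, 3 of 6 above) and 1 fell (Dio3), with a median of 0.20. None rose without ZT3 mouse 1 or 2 or ZT15 mouse 1 or 6, and none fell without ZT3 mouse 2 or 4 or ZT15 mouse 1, 2, 3, 5 or 6. Mapk3 was also not called without ZT3 mouse 6, where 2 others rose, and 4 rose without ZT3 mouse 5. Neither Mapk3 nor Dio3 was called in the fit of only the groups compared. Without ZT3 mice 5 and 6 4 rose, Mapk3 not among them, and 1 fell. In chow mice 6 rose and none fell, and in time-restricted mice 4 rose and 1 fell. Of all protein-coding genes, 1987 were called without these 2 mice, 1346 of them among the 1742. The part of astrocyte content in these results was not tested.

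**Figure D4:**
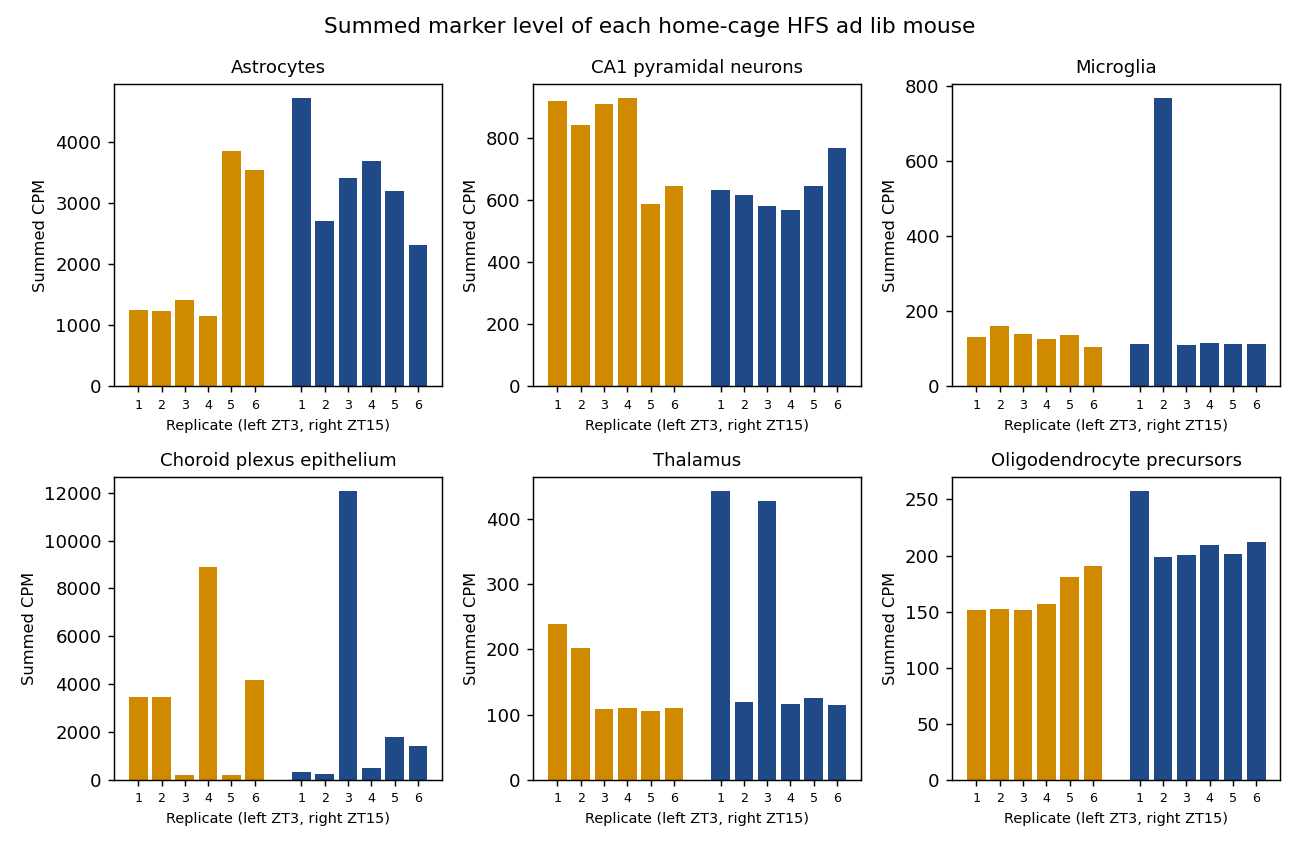
Summed CPM of 6 marker lists (vertical axes, from 0) in each HFS ad lib home-cage mouse, ZT3 replicates 1 to 6 in orange on the left and ZT15 replicates 1 to 6 in blue on the right of each panel. ZT3 mice 5 and 6 are high for astrocytes and low for CA1 neurons, ZT15 mouse 2 is high for microglia at 768 CPM, and ZT15 mouse 3 is high for choroid plexus at 12060 CPM.

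Microglial markers turned on a single mouse. The 12 summed to 105 to 161 CPM at ZT3 and to 109 to 116 CPM in 5 ZT15 mice, while ZT15 mouse 2 was at 768 CPM. Of the 12, 5 rose (median 0.73). Without ZT15 mouse 2 none rose and 1 fell (median -0.26), without ZT3 mouse 1 2 rose and without ZT3 mouse 6 1 rose. Several of the largest fold changes came from the same mouse. Lcn2, for a lipocalin of inflammation, had 932 of its 938 ZT15 counts in mouse 2 (17.5 CPM) and 4 counts in all at ZT3. Srarp, for a steroid receptor regulator, had 258 counts in ZT15 mouse 2 and 0 to 40 in the other 11, and its call held in 5 of the 12 fits that left out 1 mouse. Fli1, for an endothelial and blood cell factor, was at 5.79 CPM in that mouse and at 0.17 to 1.24 CPM in the other 11, and it was not called without it (adjusted p 0.309). Lcn2 was not called without it either (adjusted p 0.837). In the other direction, Gng14, for a G protein subunit, had 334 counts in ZT3 mouse 5, 54 in ZT3 mouse 6, 0 in the other 4 ZT3 mice and 3 in all at ZT15, and it was not called without ZT3 mouse 5 (adjusted p 0.132). Prg4, for lubricin, did not rest on 1 mouse, at 0, 0.13 and 0.28 CPM at ZT3 and 0.17, 0.82 and 2.78 CPM at ZT15 (log2 fold change 2.91, adjusted p 0.00131, 5 of 6 above). Foxc2, for a mesenchymal factor, was at 0.15, 0.46 and 0.94 CPM and at 0.64, 2.17 and 2.51 CPM (log2 fold change 1.94, adjusted p 0.00384, 5 of 6 above).

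Choroid plexus markers varied widely between mice. The 12 summed to 180 to 8880 CPM at ZT3 and 251 to 12060 CPM at ZT15, with medians of 3454 and 951.5 CPM. The most abundant, Ttr, was at 70.2 to 5628 CPM and 98.7 to 8186 CPM. The list median was -0.44, and 0 of 12 were called by edgeR (0 at an unadjusted p under 0.05) or DESeq2. Ependymal markers (0 of 8 called by edgeR or DESeq2, 0 at an unadjusted p under 0.05, most abundant Pltp) were at 12.1 to 110 CPM and 19.8 to 97.9 CPM. Thalamic markers, of a region outside the hippocampus, were 0 of 8 called by edgeR or DESeq2 (1 at an unadjusted p under 0.05, most abundant Prkcd) and were high in ZT3 mice 1 and 2 (240 and 202 CPM) and ZT15 mice 1 and 3 (443 and 428 CPM), against 105 to 126 CPM in the other 8. Oligodendrocyte precursor markers rose for 2 of 8 (median 0.26, most abundant Olig1), and their sums did not overlap, at 151 to 190 CPM at ZT3 and 199 to 257 CPM at ZT15. Gpr17, of committed precursors, rose by 0.75 (adjusted p 8.11e-06, 6 of 6 above) and Sox10, of the whole lineage, by 0.40 (adjusted p 0.00825, 6 of 6 above). Mature oligodendrocyte markers were 0 of 12 called by edgeR (5 at an unadjusted p under 0.05, median 0.15, most abundant Mbp) and 2 by DESeq2, though their sums, at 890 to 1059 CPM and 1092 to 1251 CPM, were apart as well. Endothelial markers rose for 2 of 12 (median 0.38), namely Ly6c1 (2.35, adjusted p 0.00714, 4 of 6 above) and Cdh5 (1.45, adjusted p 0.0445, 5 of 6 above), while the most abundant, Slc2a1, was not called (0.25). None did without ZT15 mouse 2, and 1 did without any of ZT3 mice 1, 2, 4, 5 and 6 or ZT15 mice 3 and 6. Of 3 further lists none was called by edgeR: pericyte markers (0 of 8, 2 at an unadjusted p under 0.05, 0 by DESeq2, most abundant Rgs5), meningeal markers (0 of 8, 2 unadjusted, 1 by DESeq2, most abundant Dcn) and red blood cell markers (0 of 6, 0 unadjusted, 0 by DESeq2). In chow mice 5 of 6 red blood cell markers rose and 1 fell, in time-restricted mice 5 rose and none fell, and in trained mice 4 rose and none fell. The part of these cell types in the changes between the times was not tested.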

How the data were processed

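Messages bound to ribosomes with phosphorylated S6 were sequenced from the hippocampus of 71 mice. The authors trimmed reads with Trim Galore 0.6.7 and cutadapt 3.4, aligned them with HISAT2 2.2.0 and deposited gene counts from featureCounts (Subread 2.0.3). Both mates appear to be counted, since 79% of values from 1 to 19 were even, so counting precision is overstated. Genes with at least 10 counts in total (30141) were fitted for 12 groups of mice with edgeR 4.0.16 (TMM, quasi-likelihood test, Benjamini-Hochberg adjustment) in R 4.3.3. DESeq2 1.42.0, other filters and scalings, and leaving out each mouse were tried as alternatives. The method was also run on simulated counts with known changes. Of 100 genes changed 1.5-fold edgeR recovered 87, and of 100 changed 2-fold it recovered 100, with 3 false calls. The simulation had 1 spread for all genes, below that of the data, and neither double-counted mates nor a difference between experiments. It is therefore no measure of accuracy on these data. Members and lists were chosen with earlier results of these data known. Named are all clock members, the 8 smallest adjusted p and 6 largest changes in each direction, and up to 4 members of other lists, apart from some genes that are not reported here. Of the members of other lists, those described were picked after their values were seen. They include members whose call held with each mouse left out, the most abundant markers, and members whose call did not hold.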

Additional observations from a re-analysis of the deposited data

Results flagged for a closer look

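In 29 of 258 groups of 6 HFS ad lib home-cage mice checked (genes, list sums, depth and pseudogene sums), 1 mouse lay far from the other 5. Chance would give about 1 in 20 for separate groups, but some of these share genes and some genes were named for their large changes. The share is therefore no test of chance. ZT15 mouse 2 was the far mouse 9 times. It was highest for Lcn2 (17.5 CPM), Srarp (4.85), Plin4 (6.36), Fli1 (5.79), C1qc (83.4), Csf1r (133), C1qa (79.2) and the microglial sum (767.5), and lowest for Gpr17 (50.3). ZT15 mouse 3 was highest 6 times: Ttr (8186), Pltp (51.1) and the sums of thyroid (11670), meningeal (46.9), choroid plexus (12060) and ependymal genes (97.9). Ttr belongs to both the thyroid and the choroid plexus list, so these sums are not separate values. Likewise C1qc, Csf1r and C1qa are members of the microglial list and Pltp of the ependymal list. They and those sums are not separate values either. The other far mice at ZT15 were mouse 1 for Clock (48.5, lowest), Bhlhe41 (62.9) and the precursor sum (257), mouse 5 for Pam16l (0.90) and Dnajb1 (129), and mouse 6 for Mpped1 (263), glutamate receptors (4254) and mt-Nd4l (0.020, from 1 count). At ZT3 they were mouse 4 for Rps10 (13), Pltp (64.5) and thyroid genes (9403), mouse 5 for Gng14 (5.78) and Tsc22d3 (72.3), and mouse 3 for Npy (23.1, lowest).

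The change from ZT3 to ZT15 in the home cage differed from the change from ORM+1h to ORM+12h for 246 protein-coding genes by the edgeR test of the difference. Among the genes named, the difference was 1.17 for Per1, 1.46 for Rorb, 1.21 for Nfil3, 1.06 for Dnajb1, 1.08 for Tsc22d3, 0.98 for Dusp5, 1.57 for Fosl2, 1.56 for Junb, 1.24 for Sik1, 1.58 for Dio2 and 1.28 for Glul on the log2 scale. For Lcn2 (8.96) and Gng14 (-9.57) the fitted value rests on counts in 1 or 2 mice and is no measure of size. The time since training, the experience itself and other differences between these mice were not tested apart.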

How the results depend on the processing

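The count of called genes was 1742 and lay between 1192 (without ZT3 mouse 1) and 1970 (without ZT3 mouse 5) when 1 mouse was left out. It was 2115 by DESeq2 (1381 rose, 734 fell). It was 903 when the fit held no mice beyond the 12 and 450 with a replicate block added to that fit, both of which estimate spread from fewer mice. In the latter fit the count was 1209 for NC ad lib mice (2008 in the fit of all mice), 2392 for time-restricted mice (2800) and 815 for trained HFS ad lib mice (1677). List counts shrank as well in the fit of only the groups compared: 0 astrocyte, microglial, endothelial and REV-ERB and ROR genes rose, 1 CA1 marker fell, and 7 glucocorticoid targets and 5 immediate-early genes rose (6 and 11 with the block). The 246 genes that differed between home cage and training were 522 by DESeq2, 88 in each of the fits of only the groups compared, with and without the block, and 764 without the 2 ZT3 mice highest in astrocyte markers, an alternative chosen after seeing the data. With 1 mouse left out they were 138 to 435. The cause of these shifts was not tested. Of 172 genes followed through 21 alternatives, which did not include the fit of only the groups compared with the block, 98 were called, of which 47 stayed called in all and 51 were lost in some. Of the 74 not called, 29 were gained in some. In the fit of only the groups compared Ly6c1, Cdh5, C1ql2, Prss35, Gabra2, Fli1 and Srarp were among those lost. Srarp was also lost with the replicate block over all mice, and Gng14 was lost there and by DESeq2. With 1 mouse left out, log2 fold changes ran from -0.12 to 1.04 for C1qc, -0.13 to 0.98 for Csf1r and -0.18 to 1.01 for C1qa, the sign turning without ZT15 mouse 2. It also turned for Gng14 (2.30) without the 2 astrocyte-high ZT3 mice. These held all its ZT3 counts, so that value is no measure of size. Of 72 mean list sums, compared only between TMM-scaled CPM and CPM of the raw library total, none moved by more than the spread between mice. The sums were not recomputed with mice left out. Depth limits the genes with few counts, such as mt-Nd4l, where 1 count in 6 mice decides the level.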
